A study of Mus musculus with 294 samples.

Results

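The livers described here are those with a low level of Tnfsf10, the gene of the death ligand TRAIL, among 294 livers from the F2 generation of a cross of B6/J with A/J mice. They were chosen by the measured level itself: a liver belonged to the low class when the brighter of the 2 Tnfsf10 probe sets lay below 6.25 on the log2 scale. The rule placed 77 livers in the low class (26.2%, exact 95% interval 21.3% to 31.6%), and all the remaining livers, called the other livers, formed the comparison. The labels give no genotype, sex, age or treatment, so the class is a range of a measured value and not a genotype. Each animal contributed 1 Affymetrix expression array, and the values are normalized intensities. The titles hold a number, and livers that share its first 3 digits form a label block; there were 15, with 17 to 23 livers each, and the labels do not say what a block stands for.

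TRAIL is a ligand of the tumour necrosis factor superfamily that is carried on the surface of natural killer cells, T cells, macrophages and other cells. In the mouse it triggers apoptosis through the death receptor encoded by Tnfrsf10b, which recruits the adaptor Fadd and activates caspase 8, while decoy receptors bind it without a death signal. Interferons induce the gene, and in the liver TRAIL is known for its part in killing by natural killer cells and in hepatocyte injury. In an F2 intercross every animal carries its own mosaic of the grandparental chromosomes, and genes that lie close together on a chromosome are usually inherited together. Differences are therefore given by gene order along chromosome 3, which carries Tnfsf10.

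The RefSeq sequences before the start are given for Tnfsf10 and for 2 neighbours, Bbs7 and Sirpb1a. With 4632415L05Rik, for which no promoter sequence was found, these were the called near neighbours of largest difference. The call of Sirpb1a was lost in 16 of 30 alternatives. The windows run 5′ to 3′ on the gene's own strand in GRCm38.p6 and hold the 250 bases before the start, at chr3:27316827-27317076 on the plus strand for Tnfsf10, chr3:36613390-36613639 on the minus strand for Bbs7 and chr3:15426428-15426677 on the minus strand for Sirpb1a. Capitals mark matches, on either strand, to the core of the interferon response element (GAAANNGAAA) or to the gamma-activated site (TTCNNNGAA), through which interferon signals reach genes.
Tnfsf10: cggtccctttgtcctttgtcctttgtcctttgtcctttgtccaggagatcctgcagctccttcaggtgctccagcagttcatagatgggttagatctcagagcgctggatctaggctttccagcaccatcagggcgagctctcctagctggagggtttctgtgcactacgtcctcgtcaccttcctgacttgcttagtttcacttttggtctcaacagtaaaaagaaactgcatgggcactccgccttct
Bbs7: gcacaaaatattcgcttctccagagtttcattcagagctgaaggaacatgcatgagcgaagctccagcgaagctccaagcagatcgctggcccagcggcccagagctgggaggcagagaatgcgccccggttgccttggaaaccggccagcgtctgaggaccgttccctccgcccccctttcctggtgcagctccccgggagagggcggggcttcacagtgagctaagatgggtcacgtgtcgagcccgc
Sirpb1a: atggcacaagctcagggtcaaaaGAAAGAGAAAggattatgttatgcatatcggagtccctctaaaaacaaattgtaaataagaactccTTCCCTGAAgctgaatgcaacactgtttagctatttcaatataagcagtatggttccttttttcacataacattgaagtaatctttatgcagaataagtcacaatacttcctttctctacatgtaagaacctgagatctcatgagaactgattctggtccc
In windows of 300 bases that reach 50 bases past the start, the interferon element core occurred in 3.44% and the gamma-activated site in 8.3% of 32851 RefSeq promoters. Neither set of letters occurred in the window of Tnfsf10 or of Bbs7, and that of Sirpb1a held 1 of each; the gamma-activated site reads alike on both strands and was counted once. These are letter matches in a reference genome, and the files give no sequence of these animals.

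Tnfsf10 ran from 4.66 through a median of 5.46 to 6.18 on the log2 scale in the low class. In the other livers it ran from 6.36 through a median of 7.26 to 8.61. The class means were 5.46 ± 0.31 (SD, n = 77) and 7.35 ± 0.42 (SD over the other livers), a 3.72-fold difference that follows from the rule and was not tested. No liver lay between 6.18 and 6.36, and 4 low livers lay above 6.0 while 4 of the others lay below 6.5. The median intensity was 43.9 in the low class and 153.7 in the others, against array medians of 21.1 to 23.2, so the dimmer class was still above the middle of the array. The second, dimmer probe set of Tnfsf10 had a mean of 3.83 ± 0.34 in the low class and 5.19 ± 0.48 in the others. On it the classes overlapped: 38 low livers lay above the lowest of the others, and 28 of the others lay below the highest low liver. In whole liver RNA, fewer cells that carry Tnfsf10 and less Tnfsf10 RNA in each cell cannot be told apart. Whether a probe set reads RNA from B6/J and A/J chromosomes alike was not tested, for Tnfsf10 or for other genes.

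**Figure D1:**
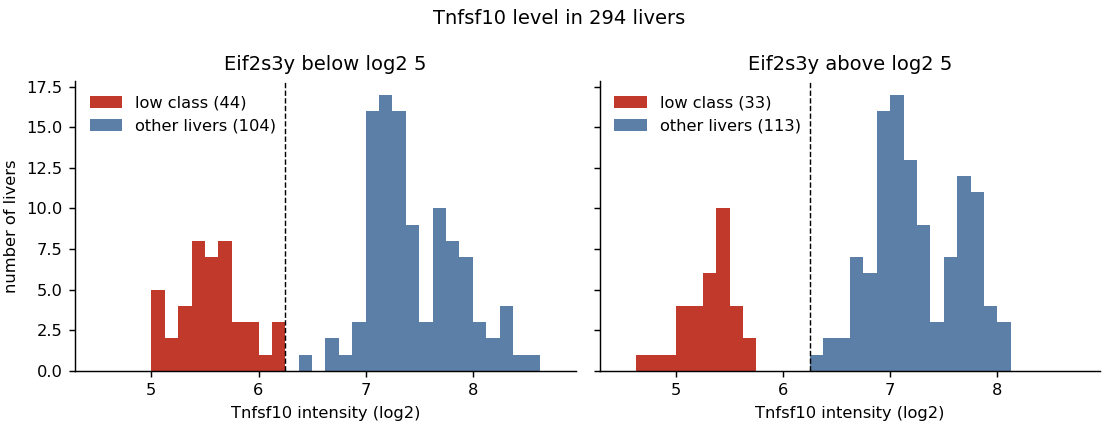
Number of livers (vertical axis) by Tnfsf10 log2 intensity (horizontal axis, bins of 0.125) in livers with Eif2s3y below or above log2 5; red bars are the low class, blue bars the other livers, and the dashed line is the cut at 6.25. The low class forms 1 separate hump in both panels, and the other livers form 2 humps with an almost empty bin of 3 livers between them.

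The other livers were not of 1 kind. Their Tnfsf10 levels formed 2 humps, with a sparse bin of 3 livers between 7.5 and 7.625 where Eif2s3y was below 5 and of 3 livers between 7.375 and 7.5 where it was above. Divided at the middle of that bin, a place chosen after the values were seen, they fell into 66 and 38 livers below and above it in the first Eif2s3y class and into 74 and 39 in the second.

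The low class was spread over both covariates of the comparison. Eif2s3y is a translation factor gene on the Y chromosome, and no liver had a level between 3.03 and 6.97. The low class held 44 livers below 5, which were 29.7% of that Eif2s3y class (exact 95% interval 22.5% to 37.8%), and 33 livers above 5, which were 22.6% (16.1% to 30.2%), a difference that a two-sided Fisher exact test did not separate (p = 0.186). Between label blocks its share ran from 5.56% (1 of 18 livers) to 47.4% (9 of 19), and a permutation test with 100000 resamples gave p = 0.263. Alb, Ttr and Cyp2e1, genes of hepatocyte products, stood near the top of the intensity scale, with medians of 14.55, 14.22 and 14.03 in both classes, which marks the tissue as liver but leaves little room for a difference. Apob, the apolipoprotein B gene, ran from 10.08 to 12.83, with class medians of 11.84 (low) and 11.82. Of 27 arrays that correlated least with the rest, 10 were in the low class.

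The first question was which other genes differed between the classes. Of 16642 genes tested, 45 passed limma's adjusted p of 0.05 (0.27%), of which 27 were higher and 18 lower in the low class, and 44 of them lay on chromosome 3. Among the 100 measured genes nearest to Tnfsf10 on that chromosome, 50 on each side, 14 passed (14%), 9 higher and 5 lower. On the rest of chromosome 3, 30 of 747 passed (4.02%), and on all other chromosomes 1 of 15752 (0.00635%). At an unadjusted p under 0.05 the shares were 27%, 12.7% and 4.31%. These livers were tested with Eif2s3y class and label block in the fit, and Tnfsf10 itself was left out.

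Tnfsf10 is the 59th of 848 measured genes along chromosome 3. Of the called genes of the chromosome, 4 lay before it (of 58 tested) and 40 after it (of 789), the farthest 45 genes before and 507 genes after. Past the 250th gene after it there was none up to the 350th, and none past the 550th. The called differences were mostly small: their median size was 0.19 on the log2 scale, and 8 of the 44 passed 1.25-fold. All 44 had the same sign in both Eif2s3y classes, and 39 kept their direction in 13 or more of the 15 label blocks. The 44 genes were called in a fit of these same livers, so shared signs in subsets of them are no separate test. No share among uncalled genes was set beside these counts, and some label blocks held few low livers. The same limits apply to the block counts given below for single genes.

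**Figure D2:**
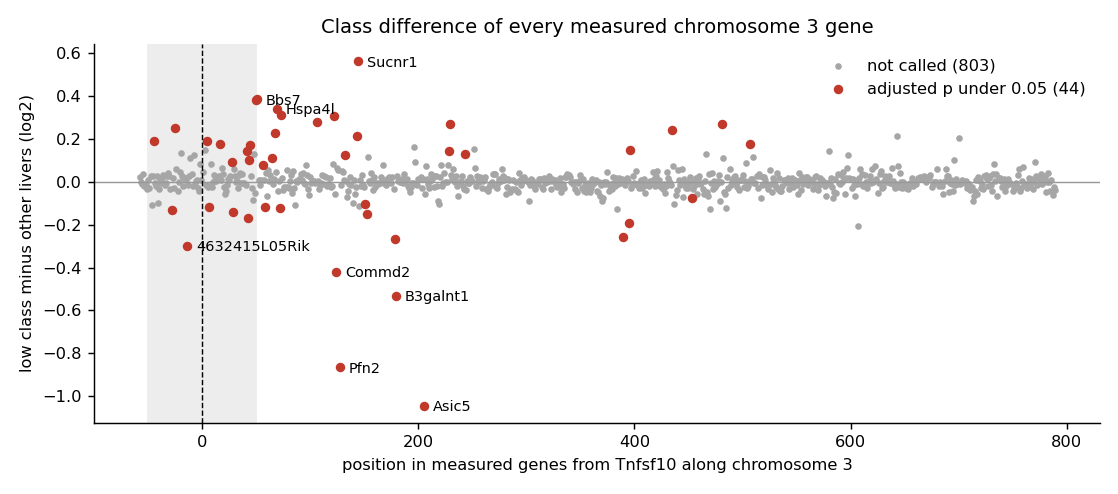
Low class minus other livers in log2 intensity (vertical axis) for each measured gene of chromosome 3 except Tnfsf10, by position in measured genes from Tnfsf10 (horizontal axis, dashed line at 0, shading over the 50 genes on each side). Red points are the 44 genes with an adjusted p under 0.05; they stop 507 genes after Tnfsf10, and the 4 largest differences, of Asic5, Pfn2, Sucnr1 and B3galnt1, lie among the first 250 genes after it.

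Most immediate neighbours of Tnfsf10 did not pass, as was so for the near neighbours as a whole. Of the 8 nearest measured genes on each side, 2 were called, Pld1 and Slc2a2. Beside them, 14% of the 100 near neighbours and 0.27% of all genes were called. Nceh1, the gene next to Tnfsf10 on one side, had a difference of 0.0099 ± 0.041 (SE), and Ghsr, the ghrelin receptor gene on the other side, 0.044 ± 0.022. Fndc3b, the second gene after Tnfsf10, had the largest difference of the uncalled ones, 0.15 ± 0.064 with an adjusted p of 0.973 in limma's fit. Cpb1, a carboxypeptidase of pancreatic acini, had 0.13 ± 0.15 and reached 11.5 in single livers of the low class and 11.2 in the others. The 8 measured pancreas acini markers summed to 373 to 12703 intensity units in the low class and to 382 to 12886 in the others; their part in the Cpb1 value was not tested.

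Pld1, phospholipase D1, lies 4 genes after Tnfsf10. Its level ran from 5.06 through a median of 5.58 to 6.71 in the low class and from 4.74 through 5.38 to 6.04 in the others. The ranges overlapped, and 17 of the 77 low livers lay below the median of the others. The difference was 0.19 ± 0.030 (SE), or 1.14-fold, with an adjusted p of 1.15e-06 in limma's fit, and it was positive in all 15 label blocks.

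Slc2a2, 6 genes after Tnfsf10, encodes the glucose transporter GLUT2 of hepatocytes. It ran from 10.01 through a median of 12.11 to 12.41 in the low class and from 11.35 through 12.17 to 12.56 in the others. The difference was small, -0.12 ± 0.028 (adjusted p = 0.0266 in limma's fit), and 56 of the 77 low livers lay below the median of the others. It was above the threshold in 10 of 31 alternatives, such as without the 27 least correlated arrays (adjusted p = 0.179).

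Bbs7, a subunit of the BBSome that carries proteins to cilia, is the 50th gene after Tnfsf10 and had the largest difference of the near neighbours. It ran from 3.52 through a median of 4.21 to 4.81 in the low class and from 3.09 through 3.81 to 4.63 in the others. All but 6 of the low livers lay above the median of the others, with overlapping ranges. The difference was 0.38 ± 0.036, or 1.30-fold, with an adjusted p of 1.33e-18 in limma's fit.

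4632415L05Rik, a gene known by its clone name, lies 14 genes before Tnfsf10. It ran from 3.98 through 4.47 to 4.92 in the low class and from 4.29 through 4.74 to 5.27 in the others. It was lower in the low class in all 15 label blocks, by -0.30 ± 0.029 (adjusted p = 9.20e-18 in limma's fit), and 66 low livers lay below the median of the others. Bbs7 and 4632415L05Rik both lie near the array medians of 4.40 to 4.53 on the log2 scale, where the precision is limited by background.

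The other called near neighbours have varied roles. Mfn1, a mitofusin of the outer mitochondrial membrane, was higher by 0.095 ± 0.015, and only 9 low livers lay below the median of the others. Mccc1, an enzyme of leucine breakdown, and Acad9, an assembly factor of respiratory complex I, were higher by 0.10 ± 0.024 and 0.17 ± 0.031. Atp11b, a phospholipid flippase, was higher by 0.15 ± 0.027. The orphan receptor Gpr160 was higher by 0.17 ± 0.027, and the G protein subunit Gnb4 was lower by -0.14 ± 0.028. Dcun1d1, which acts in cullin neddylation, was lower by -0.17 ± 0.034, and the zinc finger gene Zfp704 was higher by 0.19 ± 0.029. Each of these passed an adjusted p of 0.05 in limma's fit, the largest being 0.0101 for Mccc1. Mccc1 lost its call in 7 of 31 alternatives, Gnb4 in 3 of 30, Dcun1d1 in 2 of 30 and Mfn1 in 2 of 31. Acad9, Atp11b, Gpr160 and Zfp704 lost theirs in 1 each. The second probe set of Dcun1d1 gave -0.044 and did not pass.

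Car3, the cytosolic carbonic anhydrase of liver, fat and muscle, lies 28 genes before Tnfsf10 and was lower by -0.13 ± 0.026 (adjusted p = 0.000647 in limma's fit). Its level ran from 11.87 through 13.65 to 13.96 in the low class and from 12.82 through 13.75 to 14.07 in the others, and it was lower in all 15 label blocks. Sirpb1a, a member of a family of closely similar signal regulatory receptor genes whose members a probe set may not tell apart, was higher by 0.25 ± 0.063 (adjusted p = 0.0332). That call was lost in 16 of 30 alternatives, among them a cut at 6.0 (adjusted p = 0.599). The mean of Sirpb1a, 4.18, lay below the array medians of 4.40 to 4.53. Its second probe set gave 0.10 and did not pass (adjusted p = 0.425 in limma's fit).

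**Figure D3:**
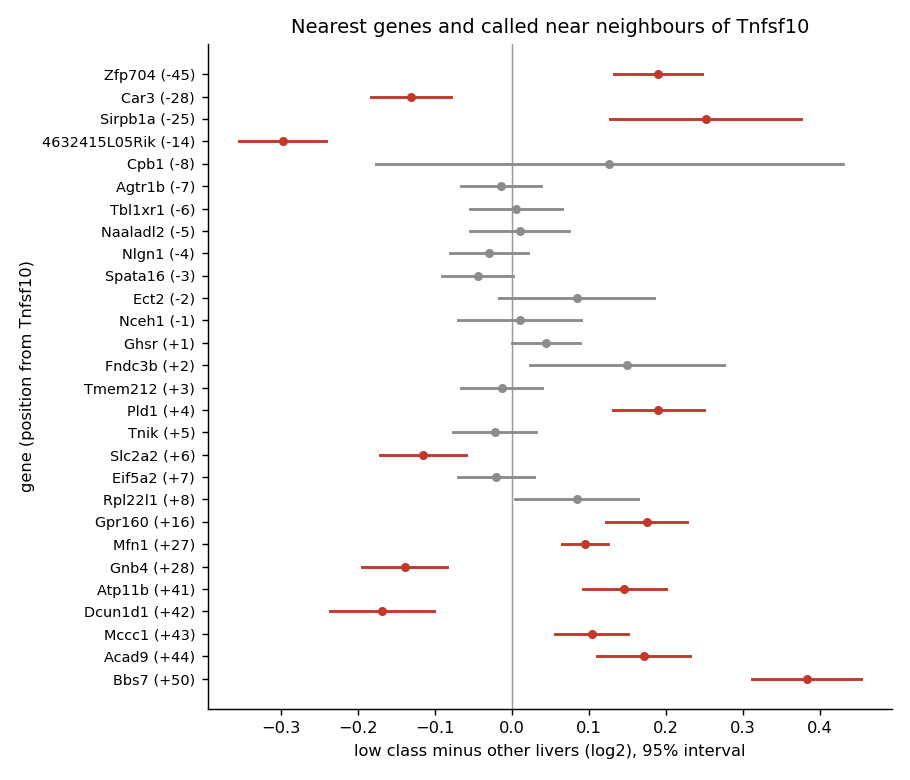
Low class minus other livers in log2 intensity with its 95% interval (horizontal axis) for the 8 measured genes nearest to Tnfsf10 on each side and for the called near neighbours (vertical axis, position from Tnfsf10 in brackets). Red genes passed an adjusted p of 0.05; among the 16 nearest these were Pld1 and Slc2a2, and the largest value was that of Bbs7 at 0.38.

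The largest differences of the chromosome lay outside the near neighbours. Asic5, an ion channel of the acid-sensing family, lies after Tnfsf10 by 24.2% of the chromosome's measured genes. It ran from 4.78 through a median of 5.82 to 9.40 in the low class and from 4.65 through 7.85 to 9.62 in the others. The difference was -1.04 ± 0.15, so the others were 2.06-fold higher, with an adjusted p of 1.66e-08 in limma's fit. The ranges overlapped almost wholly, and 16 of the 77 low livers were at or above the median of the others.

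Pfn2, the actin-binding profilin 2, lies after Tnfsf10 by 14.98% of the chromosome's measured genes and had the smallest adjusted p of all genes. It ran from 4.74 through a median of 5.49 to 7.36 in the low class and from 4.94 through 6.63 to 7.57 in the others. The ranges overlapped, and 69 of the 77 low livers lay below the median of the others. The difference was -0.87 ± 0.074, or 1.82-fold, with an adjusted p of 9.52e-22 in limma's fit. Commd2, of the COMM domain family, lies 3 genes before Pfn2 and was lower by -0.42 ± 0.042 (adjusted p = 2.15e-16), with 68 low livers below the median of the others.

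Sucnr1, the receptor of succinate, was higher in the low class. It ran from 6.13 through a median of 8.61 to 9.35 in the low class and from 5.69 through 8.20 to 9.53 in the others. The difference was 0.56 ± 0.086, or 1.48-fold, with an adjusted p of 3.86e-07 in limma's fit. In the livers with Eif2s3y above 5 alone it was 0.26 and did not pass (adjusted p = 0.932), beside 0.72 in those below 5; the test of that difference, -0.49 ± 0.17, did not pass either (adjusted p = 0.999). B3galnt1, a glycosyltransferase, was lower by -0.53 ± 0.076 (adjusted p = 2.96e-08). Hspa4l, a chaperone of the heat shock protein family, and Tm4sf4, a membrane protein of hepatocytes and other cells, were higher by 0.34 ± 0.057 and 0.31 ± 0.045. Postn, the matrix protein periostin, was higher by 0.28 ± 0.050, and 2 genes known by clone names, 4932438A13Rik and 6430590A07Rik, by 0.39 ± 0.043 and 0.31 ± 0.035.

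**Figure D4:**
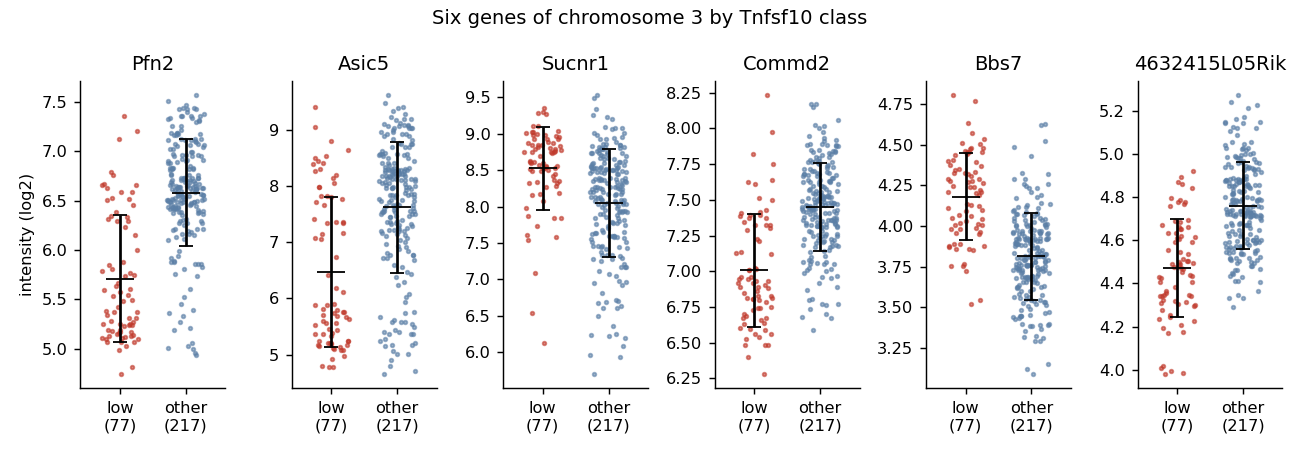
Log2 intensity (vertical axis) of 6 chromosome 3 genes in each liver of the low class (red, 77 points) and of the others (blue points); horizontal black lines are means and bars 1 SD on each side. Pfn2, Asic5, Commd2 and 4632415L05Rik sit lower and Sucnr1 and Bbs7 higher in the low class, with overlapping ranges in all 6.

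Where a called gene of chromosome 3 had several probe sets, the second brightest did not always behave like the brightest. Of the 44 called genes, 28 had a single probe set. In the other 16, tested with all probe sets in the fit, the second probe set passed in the same direction for 7, did not pass for 8, and passed in the opposite direction for 1, Ppm1l, a protein phosphatase gene (-0.27 on the brightest and 0.15 on the second). For Car3 the second probe set, at a mean of 12.4, gave -0.45 ± 0.057 against -0.13 on the brightest. For Zfp704 it gave 0.44 against 0.19, and for Gnb4 -0.34 against -0.14. For 4632415L05Rik and Commd2 the second probe sets gave -0.024 and -0.011 and did not pass, at means of 2.23 and 3.28 on the log2 scale, below the array medians. The values given for a gene are those of its brightest probe set.

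Away from chromosome 3, Neil3 alone passed. Neil3, a DNA glycosylase gene of chromosome 8, ran from 7.21 through a median of 7.84 to 8.48 in the low class and from 7.26 through 8.06 to 8.82 in the others. It was lower by -0.14 ± 0.033 (adjusted p = 0.0103 in limma's fit), with 53 of 77 low livers below the median of the others. The call was kept in 26 of 31 alternatives and lost in 5, with a cut at 6.0 among them (adjusted p = 0.0636).

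No gene of TRAIL reception passed in the class comparison. Of the 10 receptor and regulator genes listed, 9 were measured. The difference of the death receptor Tnfrsf10b was 0.00011 ± 0.035, with medians of 3.64 in the low class and 3.67 in the others. The decoy receptors Tnfrsf22 and Tnfrsf23 differed by 0.018 ± 0.024 and 0.029 ± 0.027, and osteoprotegerin, encoded by Tnfrsf11b, by 0.072 ± 0.068. Of the 9, only Tnfrsf1a, Tnfrsf1b and Fas had class medians above the array medians, so differences of the others are hard to detect. Fas, the related death receptor, stood at medians of 7.66 and 7.63. Of 26 measured genes of TRAIL signalling and apoptosis, none passed, and the difference of Casp8, the initiating caspase, was 0.016 ± 0.039.

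Lists of other pathways and cells held few called genes. Over 27 lists, 364 of 425 genes were measured, and the 2 that passed, Car3 and Slc2a2, lie on chromosome 3. None of the 34 interferon response genes passed, with a median difference of -0.040 beside -0.0011 over all genes, and none of the 15 Kupffer cell and macrophage genes, with a median of -0.038. Some other lists without a called gene had larger medians, such as -0.080 for cholesterol synthesis, 0.064 for ER stress and 0.12 for pancreas acini. The summed Kupffer markers ran from 3082 through a median of 8224 to 20402 intensity units in the low class and from 4547 through 8017 to 31465 in the others. Of the genes of 11 marker lists of other cells and tissues, 1 passed, Car3 in the adipose list. A difference that misses the threshold is not shown to be 0.

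The class difference was also compared between the Eif2s3y classes. No gene passed for the interaction in limma's fit (0%), and 616 of 16642 (3.7%) had an unadjusted p under 0.05. For Pfn2 the class difference was -1.03 in livers below 5 and -0.57 in livers above 5 (interaction adjusted p = 0.999, unadjusted p = 0.00387).

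Within the low class, the level of Tnfsf10 still varied, and the rule set only its upper limit, on the same probe set. The Pearson r between the 2 Tnfsf10 probe sets was 0.54 in the low class and 0.75 in the other livers. The change of each gene per log2 unit of Tnfsf10, called a slope here, passed for 654 genes (3.93%), of which 547 were positive (3.29%) and the rest negative (0.643%), and 612 lay on other chromosomes. Of the 15 Kupffer cell and macrophage genes 13 had a positive slope that passed, with a median slope of 0.81. So did 6 of 8 class II MHC genes (median 1.16) and 11 of 34 interferon response genes (median 0.40), beside a median of -0.014 over all genes. Other lists also had positive slopes: all 17 endothelium genes had slopes above 0 (median 0.36, 2 passed), as did all 18 cholesterol synthesis genes (median 0.40, 2 passed), and 3 of 14 NF-kB targets and 2 of 13 cell cycle genes (median 0.30) passed with a positive slope. Of 20 T and NK cell genes 1 passed, with a positive slope, and the median of that list was 0.15. The part of endothelium or other cells in the macrophage slopes was not tested.

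Adgre1, the macrophage surface receptor F4/80, had a slope of 1.08 ± 0.18 (SE, adjusted p = 0.000392 in limma's fit, n = 77). C1qb, a chain of the complement protein C1q made by macrophages, had a slope of 0.83 ± 0.14, and Cd68, a lysosomal macrophage protein, 0.90 ± 0.16. H2-Ab1 and Cd74, a class II chain and the invariant chain that escorts it, had slopes of 1.58 ± 0.34 and 1.06 ± 0.24. Psmb9 and Psmb10, subunits of the immunoproteasome, had 1.03 ± 0.18 and 0.60 ± 0.10. Within the low class, livers with more Tnfsf10 had more RNA of these genes, and the share of macrophages in the tissue was not measured.

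Most of these calls were lost when 1 label block was left out. Of the 15 blocks, each left out in turn, label block 500 was the one that left the fewest calls. It held 9 low livers that ran from 4.66 to 5.89 in Tnfsf10, of which 3 were among the least correlated arrays. Without it 28 genes passed in place of 654, and 1 of 15 Kupffer genes, 0 of 8 class II genes and 0 of 34 interferon genes. The median slopes without it were 0.63, 0.94 and 0.28, and the slope of Adgre1 was 0.94 ± 0.21 (adjusted p = 0.0288 in limma's fit). No gene of the endothelium, cholesterol synthesis, NF-kB or cell cycle lists passed without it, and the median endothelium slope was 0.19. With the second Tnfsf10 probe set as the measure, 8 Kupffer, 0 class II and 2 interferon genes passed. Leaving out label block 540 gave 362 genes and leaving out the block with the highest share of low livers, 9 of 19, gave 1140. Without the least correlated arrays, of which 10 were in the low class, 67 low livers were left. In them 200 genes passed, of them 11 Kupffer, 6 class II and 9 interferon genes. The median slope was then 0.71 for Kupffer genes, 0.060 for endothelium and 0.16 for cholesterol synthesis, and no gene of the latter lists passed. The part of the smaller number of livers in these changes was not tested.

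**Figure D5:**
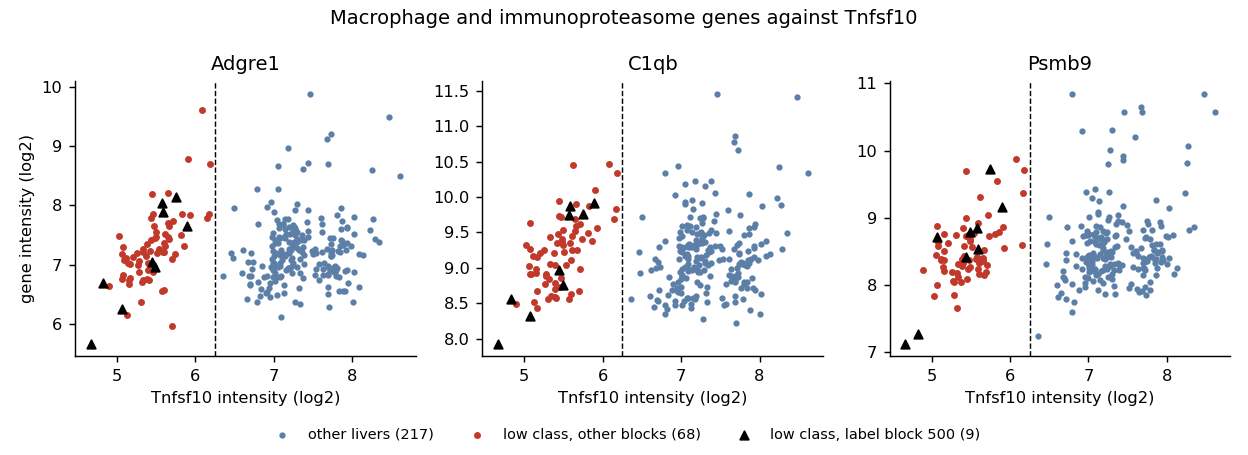
Log2 intensity of Adgre1, C1qb and Psmb9 (vertical axes) against Tnfsf10 log2 intensity (horizontal axes) in each liver; red points are the low class, black triangles its 9 livers of label block 500, blue points the other livers, and the dashed line is the cut at 6.25. All 3 genes rise with Tnfsf10 within the low class, and the liver with the lowest Tnfsf10 of all, at 4.66, is one of the triangles.

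Within the other livers, 1.12% of the genes passed for the slope, 60 of them positive (0.361%) and the rest negative (0.763%), with 13 near neighbours, 21 genes of the rest of chromosome 3 and 0.971% of those on other chromosomes. Because these livers formed 2 humps, such a slope mixes the step between the humps with the variation inside each. Label blocks moved this share: it was 0.403% without block 510, 0.475% without block 530, 0.727% and 0.637% without the blocks with 4 and 3 low livers of 17, 0.565% without 1 of the 2 blocks with 5 low livers of 18, and 2.31% without the block with 1 low liver of 18. Bbs7 had a slope of -0.30 ± 0.039 and Pfn2 one of 0.58 ± 0.079. With a term for the hump in the fit, Bbs7 kept -0.41 ± 0.078 (adjusted p = 0.00025 in limma's fit), while Pfn2, at 0.48 ± 0.16, did not pass (adjusted p = 0.0535). In that fit 879 genes passed, 610 of them negative, and 819 lay on other chromosomes. Fitted in each hump alone, with fewer livers, 461 genes passed in the lower hump (2.77%) and 0 in the upper hump.

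Of the 26 measured genes of TRAIL signalling and apoptosis, 6 passed with the hump term, 3 positive and 3 negative, beside 5.28% of all genes (1.62% positive and 3.67% negative). The negative ones were Casp8 at -0.50 ± 0.088 (adjusted p = 8.64e-05 in limma's fit), Cycs, the gene of cytochrome c, at -0.26 ± 0.070, and Ripk1, a kinase of the death receptor complex, at -0.22 ± 0.053. The positive ones were Bbc3, which promotes apoptosis, at 0.26 ± 0.078, and the apoptosis inhibitors Birc3 and Bcl2l1 at 0.23 ± 0.064 and 0.21 ± 0.059. Without the hump term 3 of the 26 passed, Apaf1 (positive), Casp8 and Ripk1. In the lower hump alone 2 of the 26 passed, with negative slopes, and in the upper hump alone 0. Among genes outside this list, chosen after their values were seen, Il15, a cytokine that sustains natural killer cells, had a slope of 0.72 ± 0.13 (adjusted p = 0.000118) and Srebf1, a regulator of lipid synthesis, one of 0.53 ± 0.12 (adjusted p = 0.00162) with the hump term. In that fit 0 of the 20 measured T and NK cell genes passed, a list without Il15 (median slope 0.15). Of the 18 fatty acid synthesis genes, a list that holds Srebf1, 2 passed, both positive. No Kupffer gene passed with or without the hump term, and the median Kupffer slope was 0.11 without and 0.26 with it. Calls with the hump term were not particular to the TRAIL list. Of 18 cholesterol synthesis genes 4 passed, all positive (median slope 0.38), and of 18 genes of fatty acid oxidation and PPARA targets 5 passed, all negative (median -0.16). In the lower hump alone 1 gene of each of these lists passed.

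Whether slopes differ between the low class and the other livers was tested directly, a test added after the slopes were seen. It called 0.853% of the genes, 8 of them with a smaller slope in the low class and the rest with a larger one, with 6 Kupffer and 5 endothelium genes. With the hump term it called 2 genes and no Kupffer gene, and with the second Tnfsf10 probe set 0 genes. For Adgre1 the difference of slopes was 0.90 ± 0.20 (adjusted p = 0.00668) without and 0.76 ± 0.23 (adjusted p = 0.179) with the hump term in limma's fit. Bbs7 passed in both fits, with a difference of slopes of 0.56 ± 0.099 and 0.63 ± 0.12.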

How the data were processed

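Liver RNA of 294 F2 animals (B6/J x A/J) was measured on 1 Affymetrix array each. The deposited values are probe set intensities on a linear scale, which the authors made with RMA, per the submitters' processing notes; its version and settings, and a genome build, are not given in the sources used here. Intensities were put on the log2 scale as they stood, without a pseudocount or rescaling. Array medians were 21.1 to 23.2; precision is limited by how many arrays there are and, for dim genes, by background. Of 32640 probe sets, 25508 had 1 gene symbol and 7132 none. Each of 16643 genes was represented by its brightest probe set. Gene order and names came from a RefSeq gene table that was taken to be of GRCm38.p6, since the files do not name its build. Promoter windows came from RefSeq sequences labelled GRCm38.p6.

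Classes were compared with limma 3.58.1 (lmFit and eBayes, R 4.3.3) with Eif2s3y class and label block as fixed terms, two-sided, with Benjamini-Hochberg adjustment over all 16642 genes at 0.05. Slopes used the same terms within 1 class. The code was tested on simulated data. Tables and figures used Python 3 with pandas and matplotlib. The separate animals make p-values those of animals, each measured once.

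Named were the 8 measured genes nearest to Tnfsf10 on each side, up to 15 called near neighbours, 10 called genes of the rest of the chromosome and 20 of other chromosomes by size, the TRAIL receptor list, and the called members of other lists up to 4. Genes closest to Tnfsf10 by correlation are not printed, since the other livers formed 2 humps; slopes of Adgre1, Psmb9, Psmb10, Il15 and others were picked from these named sets, some after their values were seen. The members and lists were chosen with earlier results of these data known. Alternatives left out label blocks, arrays or dim genes, changed the cut, the covariates, the normalization, the probe sets or the zone, and are given in the closing section.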

Additional observations from a re-analysis of the deposited data

Results flagged for a closer look

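The slope on Tnfsf10 differed between the low class and the other livers for 0.853% of 16642 genes in a test of the difference itself (limma, adjusted p of 0.05). The count was 67 genes without the 27 least correlated arrays, 76 with no label block term, 2 with a term for the 2 humps of the other livers, and 0 with the second Tnfsf10 probe set as the measure. No explanation of the difference was tested.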

How the results depend on the processing

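In the class comparison no named called gene changed sign, apart from Ppm1l on its second probe set (0.15 against -0.27). Among called slopes within the other livers, Sucnr1 went from -0.40 to 0.14 with the hump term (adjusted p = 0.778 in limma's fit) and to 0.28 in the lower hump alone, and Tm4sf4 from -0.24 to 0.011 in the lower hump. The counts of the class comparison over all genes ran from 38 to 46 when each label block was left out in turn, those of near neighbours from 11 to 15 and of the rest of the chromosome from 24 to 31. The count on other chromosomes, 1, ran from 0 to 3 in the same way; it was 6 with no label block term and with the label block as a random block, 2 with an interferon score or the first principal component as a covariate and with the cut at 6.5, 4 with the cut at 6.0, without the least correlated arrays and with every probe set by itself, 5 without the livers within 0.25 of the cut, and 3 after quantile normalization. In the livers with Eif2s3y below 5 alone the counts were 24 over all genes, 7 near, 17 on the rest and 0 elsewhere, and in those above 5 alone 9, 4 and 4 for the first 3; both fits hold fewer animals. Without dim genes they were 26, 7 and 18, with fewer genes tested, and with every probe set by itself 71 over all and 29 near. The near count was 5 with 25 and 22 with 100 genes on each side. The share of genes called for the slope within the other livers, 1.12%, ran from 0.403% to 2.31% over the label blocks left out, and was 4.19% without dim genes, 0.337% without the least correlated arrays, 3.55% with the second Tnfsf10 probe set, 0.427% without the livers near the cut and 5.28% with the term for the 2 humps. Within the low class, 3.93% became 0.168% to 6.85% over the label blocks, 1.20% without the least correlated arrays, 1.23% with the second probe set, and 1.96% both without the livers near the cut and without the low livers above 6.0. The share of differing slopes, 0.853%, became 0.403% without the least correlated arrays, 0.457% with no label block term, 0.012% with the hump term and 0% with the second probe set. Apart from the smaller samples and gene sets, the cause of these changes was not tested. The fits by label block, on the second Tnfsf10 probe set, near the cut for the slopes, with the hump term, of differing slopes, of gene lists and of second probe sets were added after seeing the data, except that leaving out label blocks in the class comparison was planned. No paired analysis was possible because each animal gave 1 array and all belong to 1 group.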
